A study of Mus musculus with 8 samples.

Results

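Cluster #m8 is a group of 156 fibroblasts of the adult mouse liver. Its cells are those that carry the number 8 in the multilevel clustering of the mesenchymal cells, out of 3491 cells in the series, 1337 mesenchymal cells and 998 male mesenchymal cells. All 156 came from male mice, all were annotated by the authors as portal fibroblasts, and 153 of them shared a single plate. The other 3 cells lay on 3 further plates, 1 on each. The mice of the study were C57BL6/J animals and reporter strains on which fluorescent proteins mark *Pdgfrb*, *Pdgfra*, *Acta2*, *Cspg4* or *Cldn5* expression, kept heterozygous. All were adult and healthy, and no treatment was given. Livers were dissociated enzymatically, single cells were sorted into plates by reporter or antibody signal, and full-length cDNA was sequenced by Smart-seq2. The labels do not name the mouse behind a cell. The name of the main plate of #m8 carries the tag Rb, which the labels do not explain, so differences in animal, reporter or sort between the plate and the others cannot be told apart from the cluster.

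Portal fibroblasts lie in the connective tissue around the portal vein, hepatic artery and bile duct. They build the fibrillar collagen and elastic fibre scaffold of the portal tract, and they are distinct from hepatic stellate cells, which store retinoids along the sinusoids. PDGFRα, the receptor for platelet-derived growth factor A, and CD34, a sialomucin found on many resting stromal cells, are in common use to recognise liver fibroblasts. The comparison groups were the male cells of the other portal fibroblast clusters, #m1 (88 cells), #m4 (89 cells, with genes of peribiliary fibroblasts) and #m10 (127 cells, 105 of them on 1 plate). Male cells of #m9 (86 cells, rich in *Wt1* and *Scara5*) served as a further fibroblast reference, and the 167 other mesenchymal cells of the main plate of #m8 as a reference that shares its plate. Of those 167, 62 belonged to #m2, 26 to #m3, 24 to #m9, 16 to #m4, 15 to #m5, 10 to #m7, 7 to #m10, 5 to #m1 and 2 to #m6.

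Expression is given as CPM, the counts of a gene summed over the cells of a group and scaled to a common total of all its counts without spike-ins. Because #m8 is in effect 1 plate of 1 sample, and because the clusters were made from the same genes, all differences between clusters are descriptions with no test over replicates. The intervals are exact 95% intervals for counting error only, as reads carried no molecular identifiers. Summed over its cells, #m8 held 20563444 counts, so that a count of 0 allows up to 0.146 CPM (3 counts).

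#m8 was the shallowest of these fibroblast clusters. Its cells had a median of 114907 counts (50191 to 387008) and 2404.5 genes, against medians of 284074 counts in #m1, 259246 in #m4 and 262143 in #m10. The plate as a whole was shallow, as the plot of counts per cell shows. The other mesenchymal cells of the plate had a median of 91025 counts, and in each of 6 other clusters with at least 10 cells on and off the plate the median was lower on it, for example 84478 against 187376 in #m2 and 119673 against 252353 in #m9. Mitochondrial genes held 2.05% of the counts of #m8 and 1.46% to 1.62% of those of #m1, #m4 and #m10. The ribosomal RNA gene *Rn18s.rs5* held 2.60% in #m8, 3.11% in the other mesenchymal cells of the plate and 0.971% to 1.17% in the 3 clusters. All 3491 cell names in the table were distinct.

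**Figure D1:**
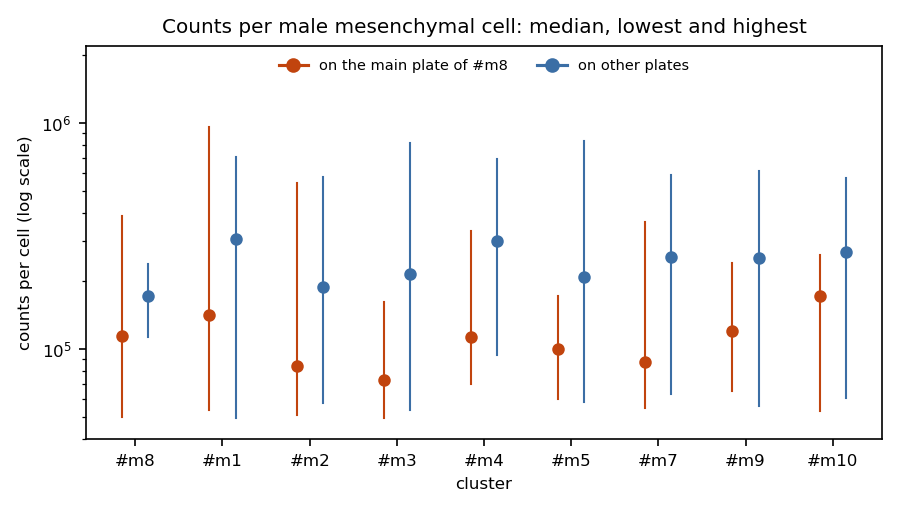
Counts per male mesenchymal cell (log scale) by cluster, with the median as a point and a line from the lowest to the highest cell, for cells on the main plate of #m8 and for cells on other plates. Every cluster shown has a lower median on the plate than off it.

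Fibroblast markers were high in #m8, as its label states. The 12 fibroblast markers together made up 49058 CPM in #m8, against 30090 in #m1, 33193 in #m4, 26271 in #m10 and 3288 in the mural cluster #m2, and all 12 reached 5 CPM. Their sum was 37462 CPM in the 28 cells of #m1, #m4 and #m10 on the plate and 37128 CPM in #m9. Every #m8 cell held more of this sum (26774 CPM in the lowest cell) than the highest #m2 cell of the plate (23388 CPM). *Pdgfra* stood at 429 CPM (420 to 438) in #m8, 470 in #m1, 908 in #m4, 513 in #m10 and 10.2 in #m2. Per cell, #m8 had from 0 to 587 counts of *Pdgfra* with a median of 7.5. *Cd34* was at 727 CPM (715 to 739) in #m8, 983 in #m1, 1324 in #m4, 471 in #m10 and 9.26 in #m2. #m8 cells had from 0 to 524 counts of *Cd34*, with a median of 38.

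At least 1 *Pdgfra* count was present in 130 of the 156 cells (83.3%, 76.5% to 88.8%) and at least 1 *Cd34* count in 138 (88.5%, 82.4% to 93.0%). Both were counted in 117 cells, *Pdgfra* alone in 13, *Cd34* alone in 21 and neither in 5. Whether these shares include stray counts was not tested. Of the 62 #m2 cells of the plate, which had a lower median depth of 84478 counts, 45.2% held a *Pdgfra* count and 54.8% a *Cd34* count. With at least 20 counts required, the shares were 41.0% for *Pdgfra* in #m8, 61.4% in #m1, 83.1% in #m4, 69.3% in #m10 and 1.61% in #m2. For *Cd34* they were 52.6% in #m8 and 0 in #m2 of the plate, where 0 of 62 cells allows up to 4.84%.

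The fibrillar collagens were at the top of the range. *Col1a1* was at 6821 CPM in #m8, above 5245 in #m4, 3114 in #m1 and 2479 in #m10. *Col1a2*, the second chain of type I collagen, stood at 6304 against 4997, 2582 and 2254 CPM in the same order, and *Col3a1*, the chain of type III collagen, at 6493 against 5384, 3281 and 3637. *Dcn*, which encodes decorin, was at 5125 CPM in #m8 and 3843 to 4855 in the 3 clusters, while *Lum*, lumican, was at 1567 against 1210 to 2255. The highest level of the list was that of *Gsn*, which encodes the actin-severing protein gelsolin, at 14075 CPM in #m8 against 7161 in #m1, 4538 in #m4 and 7461 in #m10. *Clec3b*, which encodes tetranectin, had 164 CPM in #m8 and 42.9, 130 and 53.8 in the 3 clusters, and was counted in 41.0% of #m8 cells. *Gsn* and *Clec3b* were the 2 of 12 markers at least 2-fold above the mean of #m1, #m4 and #m10, none was as far below it, and the median log2 ratio was 0.62. Over all 13180 genes tested, 6.89% were 2-fold higher and 28.6% 2-fold lower than that mean, with a median log2 ratio of -0.44.

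**Figure D2:**
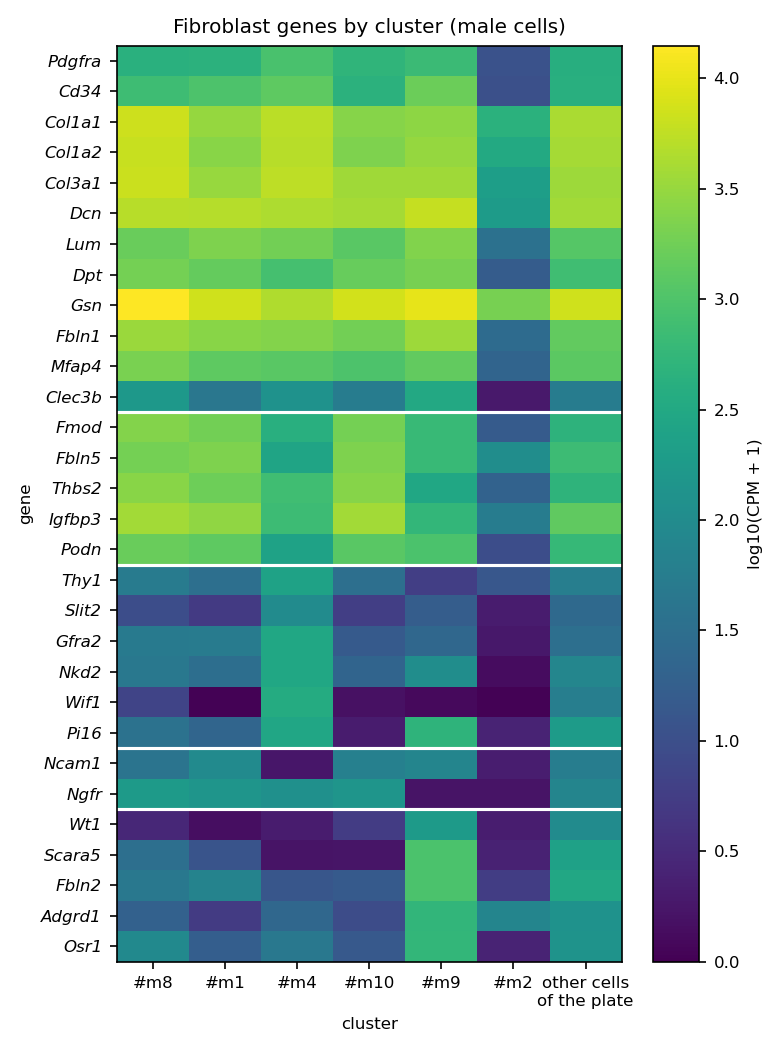
Levels of 30 fibroblast genes as log10(CPM + 1) in the male cells of 6 clusters and in the other mesenchymal cells of the main plate of #m8. White lines separate general fibroblast genes, genes shared by #m8, #m1 and #m10, peribiliary genes, portal capsule genes and genes of *Wt1*+ fibroblasts, and #m8 is bright in the first 2 blocks and dark in most of the third and last.

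Genes that mark particular fibroblast subtypes placed #m8 apart from #m4 and #m9. Of the 8 peribiliary fibroblast genes, 5 were at least 2-fold below the mean of the 3 clusters and 0 above, a mean that #m4 largely sets, and their median log2 ratio was -1.29. *Wif1*, which encodes a secreted Wnt inhibitor, had 6.03 CPM in #m8 and 362 in #m4, with 0.0727 in #m1 and 0.536 in #m10, and 92.7% of its #m8 counts came from 1 cell. *Slit2*, an axon guidance ligand, was at 8.66 CPM in #m8 and 99.0 in #m4. *Nkd2*, a feedback inhibitor of Wnt signalling, had 45.7 CPM against 293, and *Gfra2*, a receptor for neurturin, 49.8 against 300.0. *Pi16*, a protease inhibitor gene of widespread fibroblasts, was at 35.1 CPM in #m8, 283 in #m4 and 498 in #m9. #m1 had 0.0727, 4.07, 31.0, 51.4 and 21.2 CPM of these 5 genes. *Thy1* was at 52.5 CPM in #m8, 32.1 in #m1, 243 in #m4 and 31.8 in #m10. *Col15a1*, which encodes a collagen of basement membrane zones, was at 230 CPM against 47.1, 416 and 176. *Gli1*, an effector of Hedgehog signalling, was at 19.5 CPM against 21.8, 46.7 and 25.9.

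The genes of *Wt1*+ fibroblasts were low in #m8 beside #m9. *Wt1*, a transcription factor of mesothelium and its derivatives, was at 1.85 CPM in #m8 and 181 in #m9. *Scara5*, a ferritin receptor, had 31.8 CPM against 954, and 50.5% of its #m8 counts were in 1 cell. *Fbln2* had 44.3 against 953 CPM and *Adgrd1* 18.1 against 544. *Osr1*, a transcription factor of connective tissue progenitors, was at 91.5 CPM in #m8, between 16.3, 44.1 and 13.6 in the 3 portal clusters and 559 in #m9. The list had a median log2 ratio of 1.20 against the portal clusters, with 2 of 4 tested genes past 2-fold higher, and of -2.76 against the other mesenchymal cells of the plate, which include 24 #m9 cells.

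Of the 2 portal capsule genes, *Ncam1*, a neural cell adhesion molecule, had 38.2 CPM in #m8, 96.8 in #m1, 0.784 in #m4 and 63.4 in #m10, and was counted in 17.3% of #m8 cells. *Ngfr*, the low-affinity neurotrophin receptor, stood at 178 CPM in #m8, 146 in #m1, 118 in #m4, 147 in #m10 and 0.663 in #m9. It was counted in 30.8% of #m8 cells, and 13.5% had at least 20 counts.

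*Fmod*, *Podn* and *Igfbp3*, put side by side after their values were seen, were at lower levels in #m4 than in #m8, #m1 and #m10. *Fmod*, which encodes fibromodulin, a small proteoglycan that binds collagen fibrils, was at 2366 CPM in #m8, 1846 in #m1, 1935 in #m10 and 411 in #m4. It was counted in 95.5% of #m8 cells, with at least 20 counts in 69.9% of them and in 80.7% of #m1, 87.4% of #m10 and 28.1% of #m4 cells. *Podn*, a related proteoglycan gene, had 1590, 1307, 1221 and 248 CPM in #m8, #m1, #m10 and #m4, and *Igfbp3*, a binding protein of insulin-like growth factors, 3675, 2878, 3686 and 685. The other mesenchymal cells of the plate had 471 CPM of *Fmod*, 591 of *Podn* and 1389 of *Igfbp3*. Across 6751 genes the profile of #m8 had a Pearson correlation of 0.83 with the #m10 cells of other plates, 0.77 with #m4, 0.76 with #m1, 0.71 with #m3 and with #m9, and 0.44 with #m2. These values describe genes of the same libraries, which differ in depth, and carry no test.

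Genes were also taken as cluster-defining where a cluster had at least 20 CPM off the plate and at least 4 times the level of the other fibroblast clusters. #m8 was nearer to the cluster than to the others for 7 of 25 such genes of #m1, 12 of 78 of #m4, 11 of 33 of #m10 and 11 of 187 of #m9. The #m4 cells of the plate were nearer to the off-plate #m4 level for 42 of 78, the #m9 cells of the plate for 88 of 187 of their own genes, the 7 #m10 cells of the plate for 13 of 33 and the 5 #m1 cells of the plate for 2 of 25. Among the #m10 genes, *Jup*, which encodes the junction protein plakoglobin, was at 803 CPM in #m8 and 1050 in off-plate #m10, and *Tns3*, a focal adhesion gene, at 593 and 937. On the plate *Jup* was also at 995 CPM in the 5 #m1 cells and 589 in the #m9 cells, with 93.0 in the #m4 cells. *Lrat*, the enzyme that esterifies retinol, was at 55.0 CPM in #m8 against 337 in #m10.

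In the gene lists of the extracellular matrix, few members were past 2-fold in either direction. Here and in the lists that follow, counts of higher and lower members stand beside the 6.89% and 28.6% of all genes tested. Of 18 collagens tested, 2 were higher and 2 lower than the mean of the 3 clusters, with a median log2 ratio of 0.54, and of 0.61 against the other mesenchymal cells of the plate. *Col6a2*, a chain of the microfibrillar type VI collagen, was at 4139 CPM against 1268, 2665 and 1869 in #m1, #m4 and #m10, and *Col8a1* at 39.2 against 28.7, 9.68 and 14.2. *Col12a1* and *Col4a5* were lower, at 7.25 and 62.8 CPM, with the highest level of both in #m4 (174 and 382). Of 10 small leucine-rich proteoglycans 0 passed in either direction, with *Bgn* at 5798 CPM in #m8 and 4314 to 5248 in the 3 clusters. Of 19 elastic fibre genes 1 was higher and 2 lower. *Emilin1*, whose product sits at the elastin and microfibril interface, had 1303 CPM against 488, 630 and 786, while *Efemp1* had 103 against 272, 396 and 28.4 and *Mfap5* 0.292 against 3.63, 28.1 and 0.149.

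Among 18 matricellular and adhesive glycoproteins 4 were higher and 1 lower. *Ccn2*, which encodes connective tissue growth factor, was at 676 CPM in #m8, 142 in #m1, 53.4 in #m4 and 371 in #m10, and at 266 in the other mesenchymal cells of the plate. It was counted in 80.1% of #m8 cells, and at least 20 counts were present in 51.3% of #m8, 35.2% of #m1, 15.7% of #m4 and 49.6% of #m10 cells. *Vtn*, vitronectin, had 123.5 CPM against 48.6, 7.14 and 74.8. *Postn*, which encodes periostin and is known from remodelling connective tissue, was at 4.18 CPM in #m8, 0.799 in #m1, 3.90 in #m10 and 558 in #m4.

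Of 15 basement membrane genes 1 was higher, *Hspg2*, which encodes perlecan, at 588 CPM against 115, 251 and 306, although the other mesenchymal cells of the plate had 641. *Lama5* and *Npnt* were lower. Of 20 matrix proteases 2 were higher and 4 lower. *Mmp3*, stromelysin-1, stood at 334 CPM in #m8, 194 in #m1, 17.6 in #m4, 64.0 in #m10 and 46.9 in the plate's other mesenchymal cells, and *Ctsk*, cathepsin K, at 45.8 against 161, 282 and 59.4. Among 17 collagen processing enzymes *Loxl2*, a collagen crosslinking enzyme, was higher (65.7 CPM against 9.08, 10.6 and 39.1) and *P4ha2*, a prolyl hydroxylase subunit, lower (27.5 against 71.5, 69.7 and 56.6). Of 10 protease inhibitors 3 were lower, a share near that of all genes, among them *Timp1* (39.4 CPM against 107, 87.5 and 58.2) and *Timp3* (918 against 1618, 1445 and 2527). The capsular stellate cell list, which shares *Fmod*, *Dpt* and *Mfap4* with the fibroblasts, had 0 of 6 genes past 2-fold, led by *Gpx3*, a secreted glutathione peroxidase, at 5172 CPM against 3032, 1906 and 2871.

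Of 21 Wnt pathway genes 12 were at least 2-fold lower and 1 higher than the mean of the 3 clusters, with a median log2 ratio of -1.32, and 10 were lower and 2 higher than in the other mesenchymal cells of the plate, where 24.9% of all genes tested were lower and 14.1% higher. *Axin2*, a common transcriptional target of Wnt signalling, was at 0.438 CPM in #m8, 7.27 in #m1, 211 in #m4, 25.3 in #m10 and 25.3 in the plate's other mesenchymal cells. *Dkk2*, a secreted Wnt antagonist, had 0.0486 CPM in #m8, 0.145 in #m1, 168 in #m4 and 0.298 in #m10, and *Wnt2*, a ligand, 0.146 against 20.4, 20.3 and 0.0298. For *Axin2* and *Dkk2* the mean of the 3 clusters was thus largely that of #m4. Of 29 BMP and TGF-β genes 5 were higher and 7 lower, and their median of -0.35 was near that of all genes. *Id1*, a direct target of BMP signalling, was at 10.4 CPM against 92.7, 117 and 68.2, and at 135 in the plate's other mesenchymal cells. *Bmp6* stood at 12.5 CPM against 0.145, 0 and 1.87, in 2.56% of #m8 cells. In the Hedgehog list 0 genes were higher, and *Hhip*, a decoy receptor of Hedgehog ligands, was lower, at 1.60 CPM against 11.3, 96.4 and 0.357. Of 21 growth factors 0 were higher and 6 lower, beside 28.6% lower among all genes tested, with *Igf1* at 69.3 CPM against 189, 168 and 202 and *Ptn*, pleiotrophin, at 130 against 214, 756 and 70.7. Of 20 tested against the plate's other mesenchymal cells 5 were higher and 3 lower, beside 14.1% and 24.9% of all genes. The median log2 ratio of this list went from -0.65 to 0.36. Of 8 IGF binding protein genes 0 passed in either direction, with *Igfbp4* at 5761 CPM in #m8 and 2957 to 3117 in the 3 clusters. Of 22 axon guidance genes 1 was higher and 7 lower, near the shares of all genes, led by *Robo2*, a Slit receptor, at 4.77 CPM against 45.8, 31.0 and 62.3.

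Of 23 chemokines and cytokines tested 11 were lower and 0 higher, with a median log2 ratio of -0.80, against a median of 0.02 with the other mesenchymal cells of the plate. *Il34*, a ligand of the CSF1 receptor, had 2.97 CPM in #m8, 11.05 in #m1, 130 in #m4 and 32.3 in #m10, and 165 in the plate's other mesenchymal cells. *Ccl11*, eotaxin, had 12.5 CPM against 55.3, 156 and 2.83. Of 23 interferon-stimulated genes 6 were lower and 0 higher than the mean of the 3 clusters, where 28.6% of all genes tested were lower and 6.89% higher, with a median of -0.56. Of 22 tested against the other mesenchymal cells of the plate 5 were higher and 1 lower, where 14.1% of all genes tested were higher and 24.9% lower, with a median of 0.56. *Ifit1* was at 0.146 CPM in #m8 and at 15.9, 37.9 and 30.8 in the 3 clusters. Of 28 immediate early and stress genes 5 were lower and 0 higher, among them *Atf3*, a stress-induced transcription factor, at 27.1 CPM against 138, 106 and 11.7, and *Ier3* at 38.0 against 178, 227 and 100.2. Of 11 metallothioneins and oxidative stress genes 2 were lower and 0 higher. *Srxn1*, which encodes sulfiredoxin, was at 0.340 CPM in #m8, 66.4 in #m1, 52.4 in #m4, 50.9 in #m10 and 31.2 in the plate's other mesenchymal cells. Of 12 complement genes 3 were lower, and *C4b* was at 2525 CPM against 1363, 650 and 1898.

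Of 36 mesenchymal transcription factors 3 were higher and 8 lower, again near the shares of all genes. *Foxf2* and *Pparg* had no count in #m8, which placed them at least 38.1-fold and 43.4-fold below the mean of the 3 clusters by the limit of 3 counts. By the same limit *Aldh1a2*, an enzyme of retinoic acid synthesis, was at least 127-fold lower, *Bmp7* 48.7-fold, *Rsad2* 39.1-fold and *Ccl8* 22.4-fold. *Foxf2*, *Aldh1a2* and *Bmp7* were near 0 in #m1 and #m10 too, so the mean was that of #m4. Setting such genes at their limit left the medians of their lists as they were. Of 14 adipogenic and lipid genes 1 was higher and 6 lower, with *Cebpb*, an early adipogenic transcription factor, at 26.7 CPM against 110, 128 and 105. Of 10 retinoid genes 3 were lower, and of 21 contractile and cytoskeletal genes 2, *S100a4* and *Anxa1*. Of 8 cell cycle genes 6 were lower, with *Ccnd1*, cyclin D1, at 7.49 CPM against 52.7, 30.5 and 30.1. Of the 40 lists with a tested gene, 6 had a median at least 2-fold lower than the mean of the 3 clusters (mesothelial, endothelial and cholangiocyte markers, peribiliary genes, Wnt genes and cell cycle genes). The 2 with a median at least 2-fold higher were the *Wt1*+ list and the red cell list, of which only *Alas2* could be tested.

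The summed markers of endothelial, mural, stellate, immune and mesothelial cells lay within the range of #m1, #m4 and #m10, those of hepatocytes and cholangiocytes below it, and the low sums of red cell markers (10.6 CPM) and glial markers (2.38 CPM) above it. Endothelial markers summed to 115 CPM in #m8, 521 in #m1, 43.8 in #m4, 183.97 in #m10 and 623 in the other mesenchymal cells of the plate, and only 2 #m8 cells reached 1000 CPM. Hepatocyte markers were at 1360 CPM in #m8 and 1456 to 1751 in the 3 clusters. Mural markers were at 1781 CPM in #m8 against 11895 in the plate's other mesenchymal cells, and stellate cell markers at 3728 against 4422. The glial markers *Sox10*, *Cdh19* and *Mbp* had no count in #m8. Immune markers summed to 77.3 CPM, with *Cd52* at 0. The mesothelial sum was 3.65 CPM, with *Lrrn4* at 0.

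Gene by gene, 387 of 13180 genes (2.94%) were at least 2-fold higher in #m8 than in each of #m1, #m4 and #m10, and 1413 (10.7%) at least 2-fold lower. The excess of lower genes depended on scaling, as the numbers became 682 higher and 953 lower with TMM factors. The median log2 ratios of all tested genes were -0.32 against #m1, -0.34 against #m4 and -0.30 against #m10, so that a value of that size is the middle of the distribution. A total of 43 genes was at least 2-fold higher against each cluster and counted in at least 50% of #m8 cells. Without predicted genes and pseudogenes 26 remained, and the 12 with the largest smallest ratio are described first.

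Of these 12 genes, *Glul* had the highest level. It encodes glutamine synthetase, which makes glutamine from glutamate and ammonia and which in the liver is best known from the hepatocytes around the central vein. *Glul* was at 1063 CPM in #m8, 187 in #m1, 379 in #m4, 228 in #m10 and 476 in the other mesenchymal cells of the plate, and was counted in 90.4% of #m8 cells. The log2 ratios were 2.50 (2.46 to 2.55) against #m1, 1.49 (1.45 to 1.52) against #m4, 2.22 (2.18 to 2.26) against #m10 and 1.16 (1.12 to 1.19) against the plate's other mesenchymal cells. *Glul* was also higher on the plate than off it within each of the 6 other clusters, by log2 ratios from 1.12 in #m3 to 2.39 in #m5. *Teddm2* (117 CPM against 18.6, 37.2 and 23.5) and *Mir8114* (97.5 against 15.8, 31.8 and 19.6) overlap *Glul* in the annotation, so reads at that locus could not be assigned to one of the 3 with certainty.

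Several of the other genes were counted in nearly every cell and at a nearly constant number. *Lzts1* had exactly 1 count in 138 of the 153 #m8 cells of the plate, and all 153 held at least 1. Of the 167 other mesenchymal cells of the plate, 153 had exactly 1 and 165 at least 1, whereas off the plate 10 of 83 #m1 cells and 11 of 73 #m4 cells had 1. Among all 127 #m10 cells, 7 of them on the plate, 32 had 1. *Ptafr*, which encodes the receptor of platelet-activating factor, had exactly 1 count in 148 of the 153 cells. *Tox*, a transcription factor gene, had exactly 1 count in 126, and 1 cell with 131 counts held 42.7% of all its counts in #m8. Their CPM were 8.27 for *Lzts1*, 7.73 for *Ptafr* and 14.9 for *Tox*, against 0.545 to 2.35 in the 3 clusters. The means of 1.10 and 1.03 counts per cell put *Lzts1* and *Ptafr* close to 1 count, while *Tox* had a mean of 1.99.

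For *Lzts1* the variance of the counts over cells divided by their mean was 0.0805 and the Spearman correlation with depth -0.03, where a collagen such as *Col1a1* gave 459 and 0.52, with 9 to 3364 counts per cell. In all, 12 tested genes had a mean of at least 0.8 counts and a ratio under 0.5 in #m8. Of these 12 genes, 9 were among the 387 higher genes, 0 among the lower ones and 4 among the 12 named, and 7 were so in the plate's other mesenchymal cells too. 0 were so in each of #m1, #m4 and #m10. The part that such counts and the low depth have in the higher CPM was not tested.

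**Figure D3:**
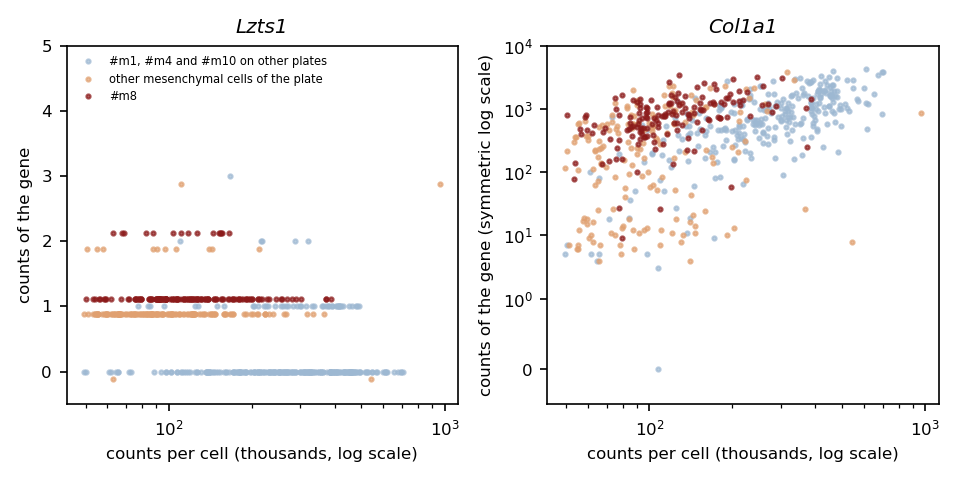
Counts of *Lzts1* (linear scale, with groups set slightly apart) and *Col1a1* (symmetric log scale) against counts per cell (log scale, in units of 1000), with 1 point per cell, for the 153 #m8 cells of the main plate, the 167 other mesenchymal cells of that plate, and the cells of #m1, #m4 and #m10 on other plates. *Lzts1* stays at 1 or 2 counts in #m8 at every depth, while *Col1a1* spans 9 to 3364.

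The remaining genes of this group were *Smco1*, *Mir6240*, *Mir124.2hg*, *Klhl31* and the transcripts *RP23.387L12.2* and *RP23.60E24.3*. Of them, *Mir6240* had the highest level, at 167 CPM in #m8 and 189 in the other mesenchymal cells of the plate, against 20.3 in #m1, 35.8 in #m4 and 39.4 in #m10. *Smco1* was at 14.3 CPM in #m8 and 15.1 in the plate's other mesenchymal cells. Of all 12 genes, only *Glul*, *Teddm2* and *Mir8114* were 2-fold higher than in the other mesenchymal cells of the plate, a direction in which 14.1% of 12261 tested genes passed. Against the 28 cells of #m1, #m4 and #m10 on the plate 0 of 12 were (28.5% of 11755 genes). In other clusters 10 to 12 of the 12 genes were at least 2-fold higher on the plate than off it, and 8 were so in all 6.

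**Figure D4:**
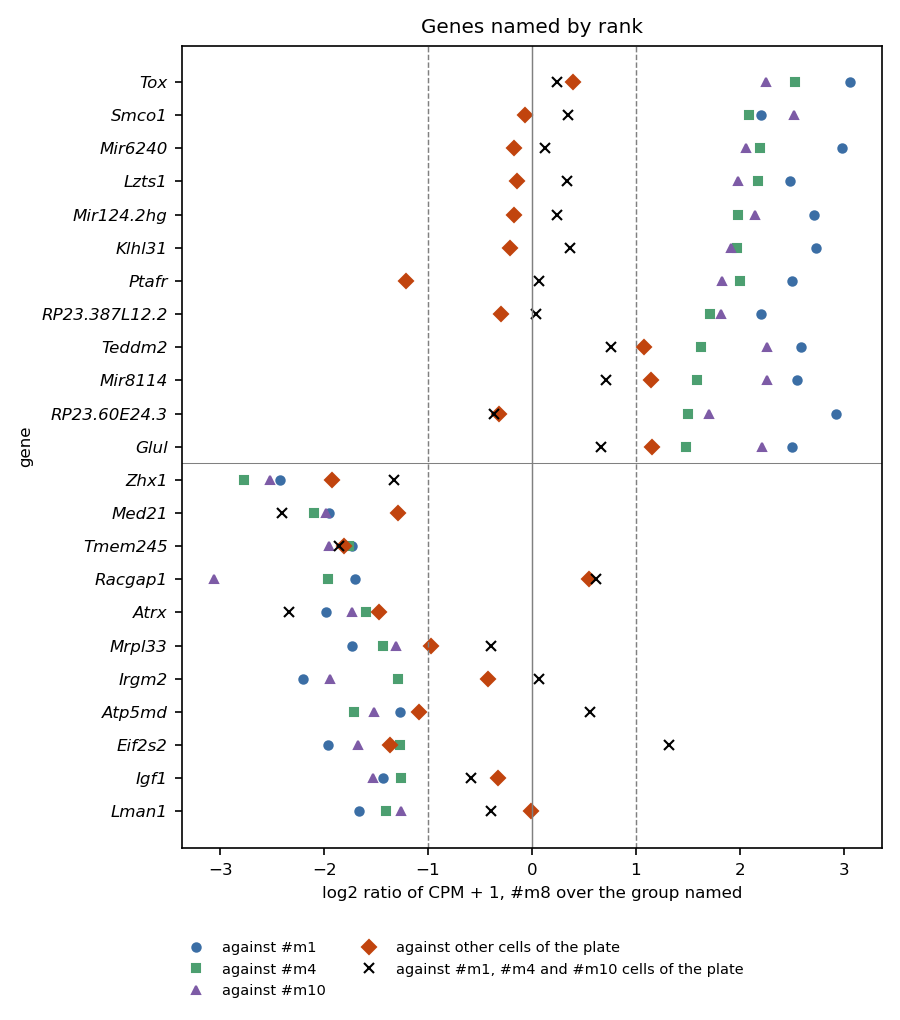
Log2 ratios of CPM + 1 of #m8 over each group for the 12 higher genes (top) and lower genes (bottom) named by rank, with dashed lines at 2-fold. The ratios over #m1, #m4 and #m10 lie past 2-fold by the choice of genes, while those over the cells of the same plate gather around 0 for 9 of the higher genes, except that of *Ptafr* at -1.22.

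Of 45 genes that were 2-fold lower against each cluster and counted in at least 50% of the cells of each, 44 remained without predicted genes and pseudogenes. The 12 of them with the largest smallest fall were led by *Zhx1*, a zinc finger and homeobox repressor. It was at 20.1 CPM in #m8, 112.5 in #m1, 143 in #m4 and 120 in #m10, with log2 ratios of -2.43, -2.77 and -2.52, and was also below the 79.0 CPM of the other mesenchymal cells and the 51.9 of the 28 fibroblasts of the plate. *Atrx*, a chromatin remodeller, was at 45.7 CPM against 183.6, 140 and 154, *Med21*, a Mediator subunit, at 11.7 against 48.3, 53.4 and 49.2, and *Tmem245* at 9.19 against 32.9, 33.6 and 38.4. These 4 were 2-fold lower than in both plate references, with *Atrx* at 128 and 234 CPM in them. Single clusters of the plate were close to #m8 or lower, with *Zhx1* at 20.7 CPM in #m3, *Atrx* at 44.5 in #m9, *Med21* at 1.93 in #m5 and *Tmem245* at 4.30 in #m4.

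*Irgm2*, an interferon-induced GTPase, differed in that respect, with 43.1 CPM in #m8 against 202, 107 and 168, but 41.0 in the 28 fibroblasts of the plate. *Igf1* and *Lman1*, a cargo receptor of the secretory pathway, were lower as well, *Lman1* at 45.9 CPM against 147, 123 and 111, with 46.2 in the plate's other mesenchymal cells. *Racgap1*, needed for cytokinesis, was at 0.535 CPM against 4.0, 4.98 and 11.8, and the 28 fibroblasts of the plate had no count. *Mrpl33*, *Atp5md* and *Eif2s2* were lower too, which makes 11 of the 12 genes described. Of the 12 genes 6 were 2-fold lower than the other mesenchymal cells of the plate as well (24.9% of genes tested) and 4 were lower than the 28 fibroblasts (23.9%).

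Of the 387 higher genes, 243 were also 2-fold higher than in the other mesenchymal cells of the plate and 20 were 2-fold lower. Among all genes tested there, 14.1% were higher and 24.9% lower. Against the 28 fibroblasts of the plate 289 were 2-fold higher and 0 lower, beside 28.5% and 23.9% of all genes. A total of 209 were higher than in both of these plate references. Those 28 cells are part of the 167 and of #m1, #m4 and #m10, and each comparison uses the same #m8 values. The counts are thus partly fixed by the choice of genes and are not separate checks. Detection changed these counts. Among the 53 of the 387 genes counted in at least 30% of #m8 cells, 5 were higher in #m8 than in both plate references. Among the 43 counted in at least 50%, 0 were. The 5 genes, singled out after their values were seen, were *Notch2*, *Ccdc157*, *Lrp4*, *Tmem132a* and *Lrrc41*.

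*Notch2*, a receptor of the Notch pathway, was at 192 CPM in #m8, 44.7 in #m1, 19.1 in #m4, 67.5 in #m10 and 84.8 in the plate's other mesenchymal cells. On the plate it was higher than #m8 in #m7, at 349 CPM, and stood at 151 in #m5 and 145 in #m2. *Lrp4*, a low-density lipoprotein receptor relative that modulates Wnt signalling, had 133 CPM against 45.6, 59.2 and 55.8, and 14.8 in the plate's other mesenchymal cells. *Tmem132a* had 150 CPM against 20.1, 35.1 and 59.5, and 71.4 on the plate, where #m7 had 494 and #m9 123. *Ccdc157* stood at 195 CPM against 11.5, 51.9 and 34.9, and *Lrrc41* at 172 against 53.6, 38.8 and 76.8. These 5 were counted in 30.8% to 47.4% of #m8 cells, and 7.05% to 14.1% had at least 20 counts. Taken as #m8, #m1, #m4 and #m10, the shares at 20 counts were 9.62%, 13.6%, 7.87% and 14.2% for *Notch2*. They were 7.05%, 3.41%, 14.6% and 10.2% for *Ccdc157*, and 14.1%, 13.6%, 15.7% and 20.5% for *Lrrc41*. For *Lrp4* they were 10.9%, 6.82%, 11.2% and 9.45%, and for *Tmem132a* 8.97%, 5.68%, 10.1% and 12.6%. In none of the 5 was the share of #m8 the highest. In the order #m8, #m1, #m4 and #m10, *Notch2* was counted in 32.1%, 39.8%, 31.5% and 39.4% of cells. With each cell thinned to 50000 counts, since #m8 was shallower, and with 1 shallower #m1 cell left out, the shares were 21.2%, 25.3%, 12.4% and 22.8%. *Lrrc41* was counted in 42.9%, 52.3%, 47.2% and 53.5%, and after thinning in 31.4%, 21.8%, 25.8% and 30.7%. *Ccdc157* was counted in 30.8% of #m8 and 36.0% of #m4 cells, and after thinning in 17.3% and 21.3%. In the order of the 4 clusters above, the thinned shares were 18.6%, 6.90%, 16.9% and 22.0% for *Tmem132a*. They were 26.9%, 16.1%, 24.7% and 19.7% for *Lrp4*. #m8 thus went from the lowest to the highest share of *Lrrc41* after thinning. In each, 1 cell held 11.8% to 30.6% of the counts.

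Of the 1413 lower genes, 886 were 2-fold lower than in the other mesenchymal cells of the plate and 35 were 2-fold higher. The shares of all genes tested were 24.9% and 14.1%. Against the 28 fibroblasts of the plate 686 were 2-fold lower and 182 higher, beside 23.9% and 28.5% of all genes. As for the higher genes, these counts are partly fixed by the choice of genes. The number lower than in both plate references was 566. By this measure 63, predicted genes and pseudogenes left out, were also counted in at least 30% of the cells of each of #m1, #m4 and #m10. Of those, also picked after their values were seen, *Zscan26* was at 3.11 CPM in #m8 against 58.9, 54.8 and 42.7 in the 3 clusters and 58.8 in the plate's other mesenchymal cells. Those cells were uneven, with 154 CPM in #m3, 125 in #m4, 8.33 in #m2, and 1.60 in #m7 and 0.642 in #m5, both below #m8. *Zscan26* was counted in 7.05% of #m8 cells and 13.2% of the plate's other mesenchymal cells, and 1 cell held 60.9% of its #m8 counts. *Ptges*, which encodes prostaglandin E synthase, had 17.1 CPM against 159, 285 and 179, and 49.7 on the plate, and was counted in 7.05% of #m8 cells, with 54.1% of the counts in 1 cell. On the plate it was at 148 CPM in #m4 and 27.4 in #m9, but below #m8 in #m2, #m3, #m5 and #m7, at 0 to 1.28 CPM. *Glis2*, a zinc finger transcription factor, was at 20.8 CPM against 81.1, 94.99 and 93.8, and 162 on the plate, and was counted in 25.6% of #m8 cells, with 34.3% of the counts in 1 cell.

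The 28 fibroblasts of the plate were themselves uneven, as 1 #m1 cell of 963822 counts held 19.7% of their counts and had 7390 CPM of endothelial markers. Endothelial markers reached 1000 CPM in 5 of the 28 cells, and their sum was 2064 CPM in this group. Without that cell, 391 genes were higher and 1396 lower than in each of #m1, #m4 and #m10. Of the 566 genes lower than in both plate references 474 kept that call without it and 52 changed sign. Of the 63 genes 51 kept it and 4 changed sign, as *Dctn5* went from a log2 ratio of -1.60 against the plate fibroblasts to 4.41. *Zscan26*, *Ptges* and *Glis2* were among those that kept it, and so were *Zhx1*, *Atrx*, *Med21* and *Tmem245*.

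Cells of other clusters also differed between the plate and other plates. In 6 clusters, between 14.8% (#m3) and 20.2% (#m2) of genes were at least 2-fold higher on the plate than off it, with 15% in #m4, 16.4% in #m5, 18% in #m9 and 19.1% in #m7. At least 2-fold lower were 36% of genes in #m2, 45.7% in #m9, 49.2% in #m3, 50.6% in #m4, 54.1% in #m5 and 54.9% in #m7. The median log2 ratios were -0.34, -0.70, -0.95, -1.04, -1.34 and -1.57 in the same order, so the whole distributions lay low. Of the 387 genes higher in #m8, 44 were higher on the plate in at least 4 of the 6 clusters, against 203 (1.54%) of all tested genes, and of the 1413 lower genes 722 were lower, against 4357 (33.1%). The part of the plate in the differences between #m8 and the other portal clusters was not tested beyond these counts, since plate and cluster cannot be told apart with 153 of 156 cells on 1 plate.

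The difference also varied with base composition, taken here over tested genes with known GC content and at least 20 CPM in #m8. These genes were thus chosen on the level of #m8 itself, for every comparison of this kind. Against #m1, the median log2 ratio went from -0.64 in the 10% of them with the lowest GC content of the longest transcript to 0.61 in the 10% with the highest. It went from -0.48 to 0.21 against #m4 and from -0.42 to 0.20 against #m10. Cells of #m2 on the plate against off it gave -0.70 and 0.44, of #m9 -1.06 and 0.20, of #m4 -1.10 and -0.28, of #m5 -1.09 and -0.39, of #m3 -0.65 and -0.39, and of #m7 -0.91 and -0.95. Between clusters with most cells on other plates, #m1 against #m10 gave 0.20 and -0.35, #m1 against #m4 0.16 and -0.37, and #m4 against #m10 0.02 and 0.01. Against the other mesenchymal cells of the plate the values were -0.03 and 0.10. Without that limit on level, GC content was known for 96.4% of all 13180 tested genes. The median was 49.8% over all of them, 52.2% for the higher and 46.9% for the lower genes. It was 45.3% for the 45 lower genes counted in at least 50% of cells. For the 43 higher genes counted in at least 50% of cells the check is void, since GC content was known for 74.4% of them.

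**Figure D5:**
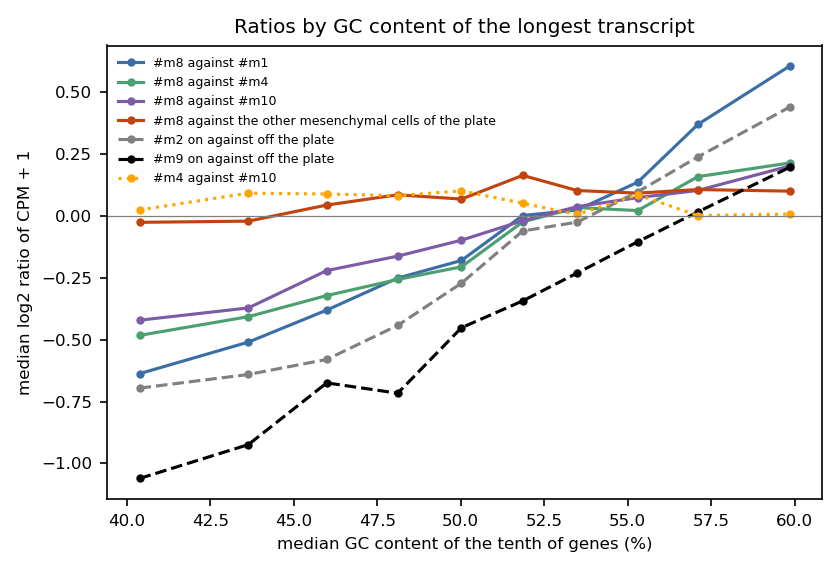
Median log2 ratio of CPM + 1 in 10 equal groups of genes by GC content of the longest transcript (%). Lines are for #m8 against 4 groups, for 2 other clusters on against off the main plate of #m8, and for #m4 against #m10. Genes are those tested with known GC content and at least 20 CPM in #m8. The lines of #m8 against #m1, #m4 and #m10 and those of the other clusters shown on against off the plate end higher than they start, for example from -0.64 to 0.61 against #m1, and that of #m8 against its own plate stays between -0.03 and 0.16.

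Clock and glucocorticoid-responsive genes were listed after the data had been seen. *Npas2*, a partner of CLOCK, was at 3.31 CPM in #m8 and 3.34 in the other mesenchymal cells of the plate, against 84.5, 54.3 and 84.2 in #m1, #m4 and #m10. *Arntl*, which encodes BMAL1, was at 29.7 CPM in #m8 and 15.1 on the plate against 121, 82.7 and 64.6. *Per1*, a repressor of the clock, ran the opposite way, at 286 CPM in #m8 and 518 on the plate against 23.3, 119 and 89.3. Of 15 clock genes 2 were higher and 3 lower than the mean of the 3 clusters, with a median log2 ratio of 0.05, and 1 was higher and 4 lower than in the plate's other mesenchymal cells, beside 14.1% and 24.9% of all genes tested, with a median of -0.56. Of 16 glucocorticoid target genes 6 were higher and 1 lower, with a median log2 ratio of 0.65, against -0.02 with the plate's other mesenchymal cells. The time of day at which the animals were killed is not given in the sources used here.

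The 3 #m8 cells of other plates had 112887, 171909 and 236698 counts. They held 2, 12 and 4 counts of *Pdgfra*, 0, 114 and 22 of *Cd34*, 287, 451 and 545 of *Col1a1* and 2, 246 and 927 of *Fmod*. All 3 were thus rich in *Col1a1* and 2 of them in *Fmod*. *Glul* had 0, 99 and 0 counts in these cells, and *Lzts1* 1, 0 and 1. ERCC spike-ins were 3.88%, 1.57% and 5.79% of their counts, against 1.18% in #m8 as a whole.

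In the authors' other clusterings #m8 was kept nearly whole. The community clustering of the mesenchymal cells placed 155 of its 156 cells in a cluster with no other cell. In the clustering of all cells, 149 fell into a cluster of 283 cells that also held 120 cells of #m10 and 7 of #m1.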

How the data were processed

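Single cells were prepared by Smart-seq2 from polyA RNA. The authors deposited raw read counts per gene and cell, without normalization. Their processing notes name Bowtie2, featureCounts and GRCm38 without a role or order. Cells of low depth, of high mitochondrial or spike-in content, of unusually many genes, or with transcripts of a foreign cell type had been filtered out by them. No doublet caller was run here. Clusters (pagoda2) and annotation are the authors'.

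Counts without ERCC were summed per cluster over male cells and scaled to CPM. Ratios are log2(CPM + 1), which understates changes of low genes. Their intervals are for the plain CPM ratio. Genes needed 5 CPM in at least 1 group compared. With 1 sample per group no test was made. Named genes were the subtype markers, the 12 highest-ranked in either direction counted in at least 50% of cells, and the 2 to 4 members of a list with the largest ratios, without predicted genes. *Jup* and *Tns3* stand outside that rule and were chosen after their values were seen. A gene that the ranking also gave is not reported here. Members and lists were chosen with earlier results of these data known. GC content is from GENCODE vM21 transcripts. The steps were tested on simulated data. Tools were Python 3.11.15, numpy 2.4.6, scipy 1.17.1, pandas 2.3.3, R 4.3.3, edgeR 4.0.16 and DESeq2 1.42.0. Both R tools gave only scaling factors. Alternatives covered scaling, filter, pseudocount, fold, thinning to 50000 counts, cell means, sex, plate and reference clusters.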

Additional observations from a re-analysis of the deposited data

How the results depend on the processing

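The counts of 387 higher and 1413 lower genes moved by over 1.5 times under these alternatives, in the direction given or in both. With DESeq2 size factors 767 were higher and 893 lower, and with TMM factors 682 were higher. Centring the ratios on the median of all genes gave 661 and 878, and centring within groups of similar GC content 608 and 815, 2 alternatives chosen after seeing the data. A filter at 20 CPM gave 171 and 937, a pseudocount of 5 CPM 247 and 697, and a fold of 4 gave 110 and 346. Against the #m1, #m4 and #m10 cells of the plate, taken as 1 pooled group and not each in turn, 3347 were higher and 2805 lower. Against the other mesenchymal cells of the plate (1725 and 3058), the filter at 20 CPM gave 948 and 1814 and the fold of 4 gave 653 and 1482. The filter left 1 of the 2 lists with a higher median. The share of #m8 cells with *Pdgfra* was 41.0% at 20 counts and 69.9% after thinning, that with *Cd34* 52.6% and 79.5%. The median of the *Wt1*+ list turned to -2.76 against the plate. A narrower filter, a larger pseudocount and a larger fold call fewer genes by construction, and for the rest the cause was not tested. Other medians changed sign from under 2-fold, and of 158 alternative values of list medians 28 had the other sign, 16 of them against the plate's other mesenchymal cells. There the interferon list went from -0.56 to 0.56, immune markers from -0.98 to 1.21, hepatocyte markers from 0.55 to -0.68, mural markers from 0.15 to -3.93 and adipogenic genes from -0.61 to 0.68. Of 306 alternative ratios of named genes 5 had the other sign, for *Lum*, *Col15a1*, *Ngfr* and *Wt1*, whose main ratios are under 2-fold. No paired analysis was possible because 1 sample holds all cells of #m8 and no result comes from a test over replicates. Depth limits genes under about 0.146 CPM and shares of cells. The plate and the cluster cannot be told apart.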
